A study of Homo sapiens with 9 samples.

Results

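The basal and wound keratins are 8 keratin genes of the epidermis, KRT5, KRT14, KRT15, KRT17, KRT6A, KRT6B, KRT6C and KRT16. They were listed by symbol, with earlier results of these data known. All 8 were found among the 60671 genes of the count files, and all 8 were among the 13390 genes that passed the filter on low counts. Their mRNA was measured by poly-A selected RNA sequencing in the epidermal keratinocyte line N/TERT, made from human skin cells by adding telomerase, in 3 groups of 3 libraries with no treatment. The groups were cells with a CRISPR knockout of SGPL1 (genotype SGPL1 KO, called KO), cells that overexpressed SGPL1 (genotype SGPl1 OE, called OE) and unedited control cells (genotype WT). SGPL1 encodes the lyase that breaks down sphingosine 1-phosphate, and the series concerns the scaling skin disease that goes with its loss. How many knockout or overexpressing lines were pooled or sampled, where the edit lies and which promoter drove the transgene were not given in the sources used here. Libraries of a group are called biological replicates, but nothing says whether they came from separate clones, so p-values measure the spread between these libraries.

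Keratins are the intermediate filament proteins of epithelial cells, and each filament is built from a type I (acidic) and a type II (basic) chain in equal numbers. Dividing basal keratinocytes make the pair KRT5 and KRT14, with KRT15 as a further basal type I chain, while KRT6A, KRT6B, KRT6C, KRT16 and KRT17 appear in nail, hair follicle and palmoplantar epidermis and are switched on between the follicles after wounding. Mutations of KRT5 or KRT14 cause the blistering disease epidermolysis bullosa simplex, and mutations of KRT6A, KRT6B, KRT16 or KRT17 cause pachyonychia congenita.

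Counts summed to 6317564 to 9410555 in KO libraries, 8773822 to 13330479 in OE libraries and 8730711 to 9251703 in control libraries, and a floor of 3 counts stood for 0.225 to 0.475 counts per 1e6 counts (CPM, which for all levels given here are also scaled by TMM). SGPL1 itself had 58.3 to 61.6 CPM in KO libraries, 929 to 1132 CPM in OE libraries and 83.9 to 98.3 CPM in control libraries, and counts over the whole gene do not test the edit. The 14 keratinocyte markers, none of them a keratin, summed to 10868 to 11253 CPM in KO libraries, 14794 to 16320.4 CPM in OE libraries and 14885 to 15398 CPM in control libraries. Of these markers 12 were lower and 2 higher in KO against control (8 and 1 with the trend below removed), beside 25.9% and 26.0% of all genes tested. The part of these markers in the keratin results was not tested. Fibroblast markers summed to 78.0 to 91.5, 92.7 to 95.8 and 81.0 to 91.6 CPM in KO, OE and control libraries, with COL3A1 and LUM at 0 in all 9. Most of that sum was FAP, with means of 73.4, 67.4 and 61.1 CPM, and COL1A1, with 11.2, 26.0 and 25.6 CPM. Melanocyte markers summed to 69.5 to 78.0 CPM in KO libraries, 60.8 to 71.4 in OE libraries and at least 90.0 in control libraries, with TYR, DCT and SOX10 at 0. Nearly all of it was MITF, with means of 71.1, 62.5 and 94.0 CPM in KO, OE and control libraries. Endothelial, blood and immune markers summed to 6.39 to 9.13, 1.55 to 2.19 and 3.90 to 6.44 CPM in KO, OE and control libraries, with PECAM1, PTPRC, CD3E, CD68 and HBB at 0. CD14 made up most of it, with means of 6.62, 1.33 and 3.50 CPM. These 3 sums therefore follow single genes more than a cell type. Log2 fold changes of all genes in KO libraries followed exon length, with a median of 0.52 against control libraries in the shortest of 10 length classes and -0.45 in the longest. Values with the trend over length and GC content removed are therefore given where they change a call or a list count that is stated.

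The 8 genes lie in the keratin clusters, the type II genes on chromosome 12 (GRCh38, minus strand: KRT6B at chr12:52446651-52452146, KRT6C at chr12:52468516-52473805, KRT6A at chr12:52487176-52493257 and KRT5 at chr12:52514575-52520530) and the type I genes on chromosome 17 (minus strand: KRT15 at chr17:41513745-41522529, KRT14 at chr17:41582279-41586895, KRT16 at chr17:41609778-41615899 and KRT17 at chr17:41619442-41624842). Several members are recent copies, which limits how far reads can be given to a single gene. The coding sequence of KRT6A was 97.5% identical to that of KRT6B and 97.9% to that of KRT6C, and KRT6B and KRT6C were 98.5% identical, over 1692 aligned bases. The 3 copies differed in 51 of these columns, and their longest identical run was 269 bases, longer than a read of 150 bases. The stretch of 60 coding bases with the most differences lies in exon 2 (coding bases 663 to 722, chr12:52491555-52491614 in KRT6A, chr12:52450439-52450498 in KRT6B and chr12:52472099-52472158 in KRT6C, minus strand), and it is shown because a read across it can be assigned to 1 copy. Capitals mark the 9 positions at which the copies are not all alike, and the bases are from GENCODE release 29 on GRCh38, written 5′ to 3′ along the gene.
KRT6A: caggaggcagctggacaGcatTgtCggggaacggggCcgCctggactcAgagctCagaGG
KRT6B: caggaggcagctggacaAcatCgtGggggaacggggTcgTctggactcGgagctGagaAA
KRT6C: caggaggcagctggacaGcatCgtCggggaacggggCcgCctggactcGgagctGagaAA
Of all windows of 150 bases in the main transcript, 9.25% in KRT6A, 12.8% in KRT6B and 16.5% in KRT6C occurred without a mismatch in a transcript of another gene, which was always another copy of KRT6.

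KRT14, KRT16 and KRT17 are more distant. Coding identity was 87.6% between KRT14 and KRT16, 83.8% between KRT14 and KRT17 and 76.7% between KRT16 and KRT17, and 0.595% of the windows of KRT14, 0.736% of those of KRT16 and 0 of those of KRT17 were shared with another gene. Their most alike stretch of 60 bases lies in exon 1 (coding bases 352 to 411 of KRT14 at chr17:41586424-41586483, 358 to 417 of KRT16 at chr17:41612272-41612331 and 259 to 318 of KRT17 at chr17:41624192-41624251, minus strand). It encodes the helix initiation motif at the start of the rod, where many dominant KRT14 mutations of epidermolysis bullosa simplex lie, and it is shown because reads within it could be traded between these genes. The capital marks the 1 position at which they are not all alike.
KRT14: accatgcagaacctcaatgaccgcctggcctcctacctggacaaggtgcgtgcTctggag
KRT16: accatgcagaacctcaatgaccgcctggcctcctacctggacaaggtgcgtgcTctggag
KRT17: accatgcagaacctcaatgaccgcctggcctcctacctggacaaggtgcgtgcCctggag
No window of KRT5 or KRT15 was shared with another gene. KRT5 and KRT6A, neighbours on chromosome 12, were 81.0% identical in coding sequence, and type I and type II members were 47.2% to 51.3% identical.

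In the KO cells 7 of the 8 keratins were lower than in control cells and none was higher, and the fall was larger for the KRT6 copies than for the basal pair. Of all 13390 genes tested, 25.9% were lower and 26.0% higher in that comparison (51.9% in all) by the quasi-likelihood test of edgeR, at a Benjamini-Hochberg adjusted p under 0.05, so a changed gene was common. The median log2 fold change of the 8 was -0.90, beside -0.00 over all genes tested. All 8 had KO libraries that did not overlap the control libraries, as had 59.5% of all genes. The 8 genes together took 1.45% to 1.63% of all gene counts in KO libraries, 3.15% to 3.51% in OE libraries and 3.00% to 3.03% in control libraries. In RNA of whole cultures, fewer cells that express a keratin and less of its RNA in each cell cannot be told apart.

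**Figure D1:**
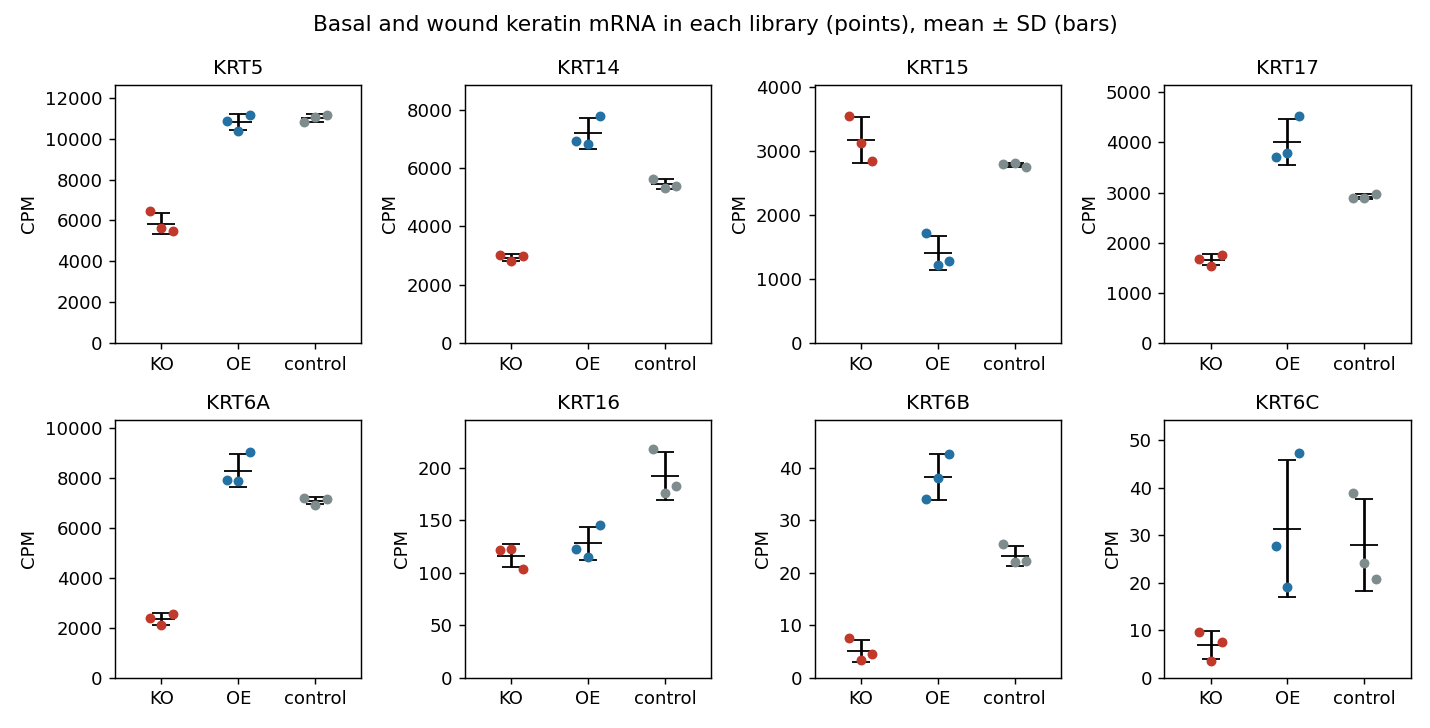
Level of each keratin (CPM, vertical axes from 0, a scale for each gene) in the 3 KO, 3 OE and 3 control libraries, with points for libraries and bars for mean ± SD. The KO points of KRT5, KRT14, KRT17, KRT6A, KRT6B and KRT6C lie below every OE and control point, KRT15 is lowest in OE libraries, and KRT16 is highest in control libraries.

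KRT5, the type II chain of the basal pair, was the most abundant member by counts. It stood at 6448, 5618 and 5483 CPM in KO libraries, 10851, 10406 and 11177 CPM in OE libraries and 10818, 11069.9 and 11161 CPM in control libraries. The KO libraries lay below all others, and the OE and control libraries overlapped. KRT5 was 1.88-fold lower in KO than in control cells (log2 fold change -0.91 ± 0.08 SE, adjusted p = 1.49e-09). OE against control did not pass the test, with a log2 fold change of -0.03 and a 95% interval from -0.18 to 0.13 (adjusted p = 0.854).

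Of the 8 members, KRT5 alone had an entry in the table of RefSeq promoters (GRCh38.p14) used here. Its 250 bases before the transcription start (chr12:52520395-52520644, minus strand) are shown 5′ to 3′ because KRT5 is the most abundant member and fell in KO cells while its OE and control libraries overlapped. The start is that of RefSeq, and the gene in the count files reaches further upstream.
KRT5 promoter: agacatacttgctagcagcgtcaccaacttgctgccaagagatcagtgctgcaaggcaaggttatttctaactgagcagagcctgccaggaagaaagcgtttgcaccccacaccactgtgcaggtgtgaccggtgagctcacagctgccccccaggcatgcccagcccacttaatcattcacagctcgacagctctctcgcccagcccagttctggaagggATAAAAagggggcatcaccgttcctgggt
Capitals mark ATAAAA, a variant of the TATA box, which begins 29 bases before the start and occurs in 14.8% of 35116 promoters. The letters TATAAA (10.7% of promoters, sharing bases with ATAAAA where both occur), TGANTCA for AP-1 (6.57%), GCCNNNGGC for AP-2 (19.8%) and GGGCGG for the GC box (42.6%), searched on both strands, were not in this window. A match is a description of letters and not of binding.

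KRT14, the type I partner of KRT5, had 3011, 2805 and 2971 CPM in KO libraries, 6946, 6843 and 7807 CPM in OE libraries and 5648, 5313 and 5399 CPM in control libraries. The 3 groups did not overlap, with KO lowest and OE highest. Its log2 fold change was -0.90 ± 0.08 in KO against control (adjusted p = 1.61e-09), close to that of KRT5, and 0.40 ± 0.08 in OE against control (adjusted p = 0.000466), where KRT5 did not pass the test.

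Of the members, KRT15 alone showed its lowest level in OE libraries together with its highest in KO libraries. This type I chain is found in basal cells and marks the bulge of the hair follicle. Its level was 3547, 3124 and 2847 CPM in KO libraries, 1716, 1224 and 1279 CPM in OE libraries and 2798, 2807 and 2751 CPM in control libraries. The OE libraries lay well below the rest, and the lowest KO library was just above the highest control library. KRT15 fell in OE against control by 0.99 on the log2 scale (± 0.10 SE, adjusted p = 3.18e-07). In KO against control its log2 fold change of 0.19 ± 0.10 (95% interval -0.02 to 0.40) did not pass the test (adjusted p = 0.128). That call depended on the processing, since with the trend over exon length and GC content removed it was 0.48 (adjusted p = 0.000101), and over all alternatives the adjusted p ran from 0.000101 to 0.479. The length used for that trend was the 5969 bases of annotated exon in the count files, against 2394 bases in the main transcript of KRT15.

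KRT17, a type I chain of hair follicle, nail and wounded epidermis and an early marker of keratinocyte activation, had 1678, 1539 and 1757 CPM in KO libraries, 3714, 3787 and 4531 CPM in OE libraries and 2887, 2888 and 2979 CPM in control libraries. As for KRT14, the groups stood apart in the order KO, control, OE. The log2 fold changes were -0.82 ± 0.08 in KO against control (adjusted p = 2.67e-08) and 0.46 ± 0.08 in OE against control (adjusted p = 0.0003).

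KRT6A, the main type II wound keratin, had 2403, 2107 and 2562 CPM in KO libraries, 7923, 7905 and 9064 CPM in OE libraries and 7229, 6929 and 7163 CPM in control libraries. It was 3.01-fold lower in KO than in control cells (log2 fold change -1.59 ± 0.08, adjusted p = 1.26e-12), a larger fall than those of KRT5, KRT14 and KRT17, whose 95% intervals did not reach it. Every OE library was above every control library, by a log2 fold change of 0.22 ± 0.08, but this missed the threshold (adjusted p = 0.0607) and passed it with the trend removed (0.20, adjusted p = 0.0442).

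Its copies KRT6B and KRT6C were rare. KRT6B had 7.47, 3.36 and 4.57 CPM in KO libraries (27 to 62 counts), 34.0, 38.1 and 42.7 CPM in OE libraries and 25.4, 22.1 and 22.2 CPM in control libraries. The groups did not overlap, and the log2 fold change was -2.17 ± 0.20 in KO against control (adjusted p = 7.53e-09) and 0.72 ± 0.16 in OE against control (adjusted p = 0.00246). KRT6C had 9.52, 3.59 and 7.44 CPM in KO libraries, 27.7, 19.1 and 47.2 CPM in OE libraries and 38.9, 24.1 and 20.7 CPM in control libraries. Its KO libraries stood apart, with a log2 fold change against control of -2.04 ± 0.31 (adjusted p = 8.72e-06), while OE libraries spread across the control libraries (0.18, 95% interval -0.36 to 0.72, adjusted p = 0.696). With so many shared windows, part of the counts of both may come from KRT6A or from each other, and the 3 copies summed gave -1.60 ± 0.08 in KO against control (adjusted p = 1.25e-12) and 0.23 ± 0.08 in OE against control (adjusted p = 0.0596), nearly the values of KRT6A.

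KRT16, the type I chain that pairs with KRT6, was low in these cells and followed a pattern of its own. It had 122, 123 and 104 CPM in KO libraries, 123, 115 and 146 CPM in OE libraries and 218, 176 and 183 CPM in control libraries. KO and OE libraries overlapped, and both lay below all control libraries. KRT16 was lower in KO against control (log2 fold change -0.72 ± 0.10, adjusted p = 2.63e-06) and also in OE against control (-0.58 ± 0.10, adjusted p = 0.000173). Set directly against each other, KO and OE cells gave -0.14 with a 95% interval from -0.35 to 0.07 (adjusted p = 0.243).

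Across the 8 keratins, OE cells thus had 3 higher than control cells (KRT14, KRT17 and KRT6B), 2 lower (KRT15 and KRT16) and 3 that did not pass. In that comparison 9.28% of all genes tested were higher and 9.34% lower (18.6% in all). The libraries of 6 members did not overlap, as was so for 34.8% of all genes, and the member median was 0.20, beside -0.01 over all genes. Only KRT6B and KRT15 of the 5 changed by at least 1.5-fold together with the threshold. The fold changes of KO and OE rest on the same 3 control libraries and are not independent.

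KO and OE cells, which share no library, differed more. There 6 members were lower in KO cells, KRT15 was higher and KRT16 did not pass, where 29.0% of all genes were lower and 28.6% higher (57.6% in all). The libraries of 7 members did not overlap, as was so for 61.6% of all genes tested, and the member median was -1.28, beside -0.01. The log2 fold changes were -0.89 ± 0.08 for KRT5, -1.30 ± 0.08 for KRT14, -1.27 ± 0.08 for KRT17 and -1.82 ± 0.08 for KRT6A, with adjusted p from 1.16e-09 to 6.29e-14. For KRT15 the difference was 1.17 ± 0.10 (adjusted p = 1.46e-09). KRT6B reached -2.90 ± 0.20 (adjusted p = 2.6e-11) and KRT6C -2.22 ± 0.31 (adjusted p = 1.72e-06).

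**Figure D2:**
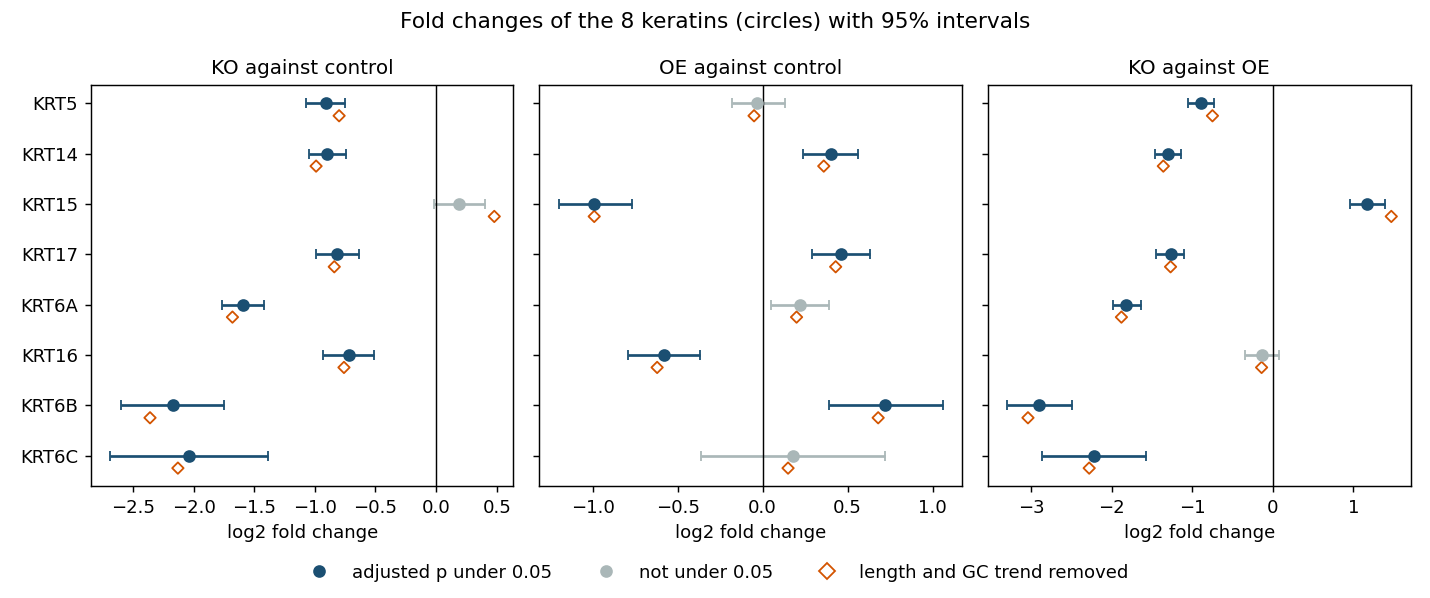
Log2 fold change of each keratin with its 95% interval (circles, dark where the adjusted p is under 0.05) in KO against control, OE against control and KO against OE. Open diamonds give the value with the length and GC trend removed, which moves KRT15 from 0.19 to 0.48 in KO against control and leaves the 7 falls in place.

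Removing the trend over length and GC content left 7 members lower in KO against control and made KRT15 the 1 that was higher. In OE against control it gave 4 higher and 2 lower, and in KO against OE 1 higher and 6 lower, as before.

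To compare levels between genes, CPM were divided by the length of each main transcript in kb. In control cells the order was KRT5 (4353 ± 70.2 CPM per kb, SD, n = 3), KRT14 (3281 ± 105), KRT6A (3077 ± 68.3), KRT17 (1923 ± 34.7), KRT15 (1163 ± 12.5) and KRT16 (117 ± 13.6). Below them came KRT6C and KRT6B, at 12.2 ± 4.22 and 10.2 ± 0.822 CPM per kb, which overlapped. No other neighbours in that order overlapped in control libraries.

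In KO cells KRT5 again came first (2311 ± 206 CPM per kb), followed by KRT14 (1762 ± 65.8), but KRT15 (1325 ± 147) came next. KRT17 (1093 ± 72.6) and KRT6A (1020.5 ± 100.1) followed and overlapped in their libraries, and KRT16 was at 70.7 ± 6.65. In OE cells KRT14 (4331 ± 318) and KRT5 (4272 ± 153) overlapped at the top, followed by KRT6A (3592 ± 287), KRT17 (2644 ± 298), KRT15 (587 ± 112) and KRT16 (78.0 ± 9.80). The order depends on the length used: over all annotated exons, KRT15 (532 CPM per kb) came below KRT6A (806) and KRT17 (553) in KO cells. In OE cells KRT5 (2616) then came below KRT14 (3192) and KRT6A (2836), and in control cells KRT6A (2429) and KRT14 (2418) were level.

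**Figure D3:**
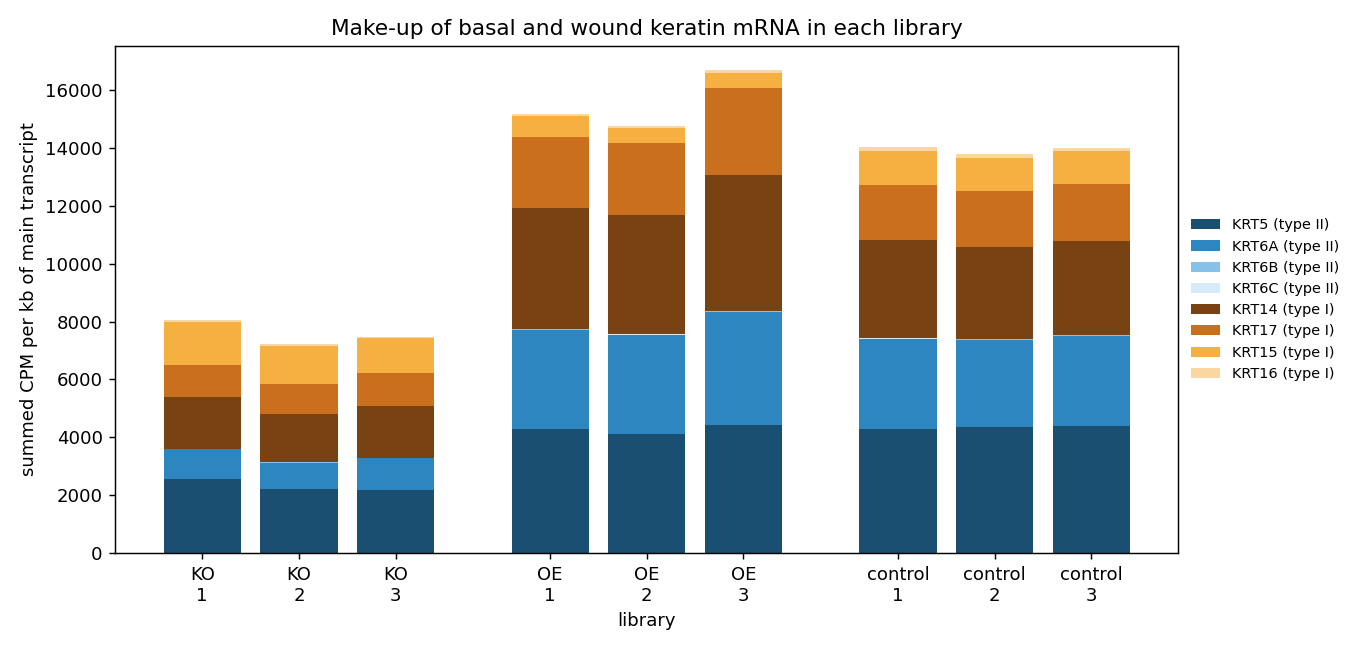
Summed CPM per kb of the 8 keratins in each KO, OE and control library, with type II chains in blue at the bottom and type I chains in brown above. The sum is 7217 to 8068 in KO libraries, 14754 to 16687 in OE libraries and 13773 to 14034 in control libraries, and the KRT15 band is widest relative to the bar in KO libraries.

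The make-up of this keratin pool changed along with its size. On the scale of CPM per kb, KRT15 made up 17.4% ± 1.35 of the members' sum in KO libraries, 3.80% ± 0.814 in OE libraries and 8.35% ± 0.154 in control libraries (SD, n = 3 each). KRT6A made up 13.5% ± 1.20 in KO, 23.1% ± 0.453 in OE and 22.1% ± 0.268 in control libraries. The share of KRT5 varied less, at 30.4% ± 1.33, 27.5% ± 0.950 and 31.2% ± 0.687 in KO, OE and control libraries. Its OE libraries, at 26.5% to 28.3%, lay below all KO and control libraries, which overlapped.

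Ratios within a library show which keratins moved together, without regard to the scaling of libraries. They are given as descriptions, since they rest on the same values as the fold changes. The basal pair fell side by side in KO cells by these ratios, which are not corrected for the length and GC trend. With it removed, the log2 fold changes in KO against control were -0.80 for KRT5 and -0.99 for KRT14. KRT5 over KRT14 was 1.41, 1.32 and 1.21 in KO libraries, 1.03, 0.999 and 0.940 in OE libraries and 1.26, 1.37 and 1.36 in control libraries. KO and control libraries overlapped, and the OE libraries lay below both. KRT17 over KRT14 was nearly even across the study, at 0.620 ± 0.0246 in KO, 0.609 ± 0.0252 in OE and 0.587 ± 0.0235 in control libraries, with overlap between all groups.

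The wound and basal type II chains moved apart. KRT6A over KRT5 was 0.408, 0.411 and 0.512 in KO libraries, 0.800, 0.832 and 0.889 in OE libraries and 0.732, 0.686 and 0.703 in control libraries, without overlap between groups. KRT6A over KRT17 was 0.932 ± 0.0304 in KO, 1.36 ± 0.0444 in OE and 1.60 ± 0.0389 in control libraries. KRT6A over KRT16, its usual partner, was 14.6 ± 2.76 in KO, 46.2 ± 2.38 in OE and 26.5 ± 2.49 in control libraries, so the KRT6A excess was lowest in KO and highest in OE cells.

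The type I chains KRT15 and KRT14 moved apart as well. KRT15 over KRT14 was 0.818, 0.773 and 0.665 in KO libraries, 0.171, 0.124 and 0.114 in OE libraries and 0.344, 0.367 and 0.354 in control libraries. The groups did not overlap, and the KO mean was 5.51 times the OE mean.

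Summed over the members, type II chains stood to type I chains as 0.784 ± 0.0181 in KO, 1.03 ± 0.0225 in OE and 1.15 ± 0.0205 in control libraries. The same order of groups held over all annotated exon length, at 0.915, 1.14 and 1.30. Over all tested keratins of both types, the ratio was 0.711 ± 0.0275 in KO, 0.817 ± 0.0264 in OE and 0.759 ± 0.0172 in control libraries by main transcript. With all annotated exons it was 0.914, 0.931 and 0.896, so there KO against control turned round with the length used.

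**Figure D4:**
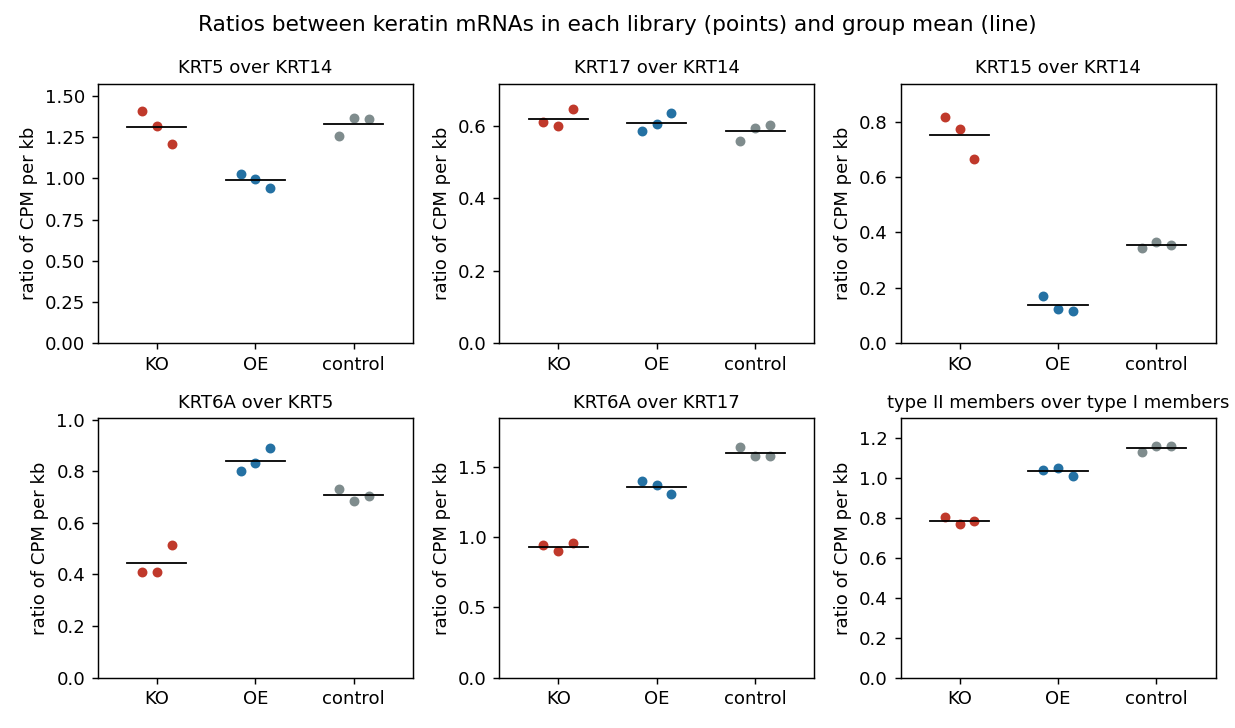
Ratios of CPM per kb between keratins in each library (points) with the group mean (line), KO, OE and control from left to right, axes from 0. KRT17 over KRT14 is nearly even across the groups, KRT15 over KRT14 averages 0.752 in KO and 0.136 in OE libraries, and type II over type I is lowest in KO libraries at 0.784.

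The clusters also hold other keratins, of which 6 were higher and 4 lower in KO against control. Of all genes tested, 26.0% were higher and 25.9% lower there. Of 24 other type I keratins 6 were tested, and in KO against control 3 were higher (KRT10, KRT18 and KRT19), 2 were lower (KRT13 and KRT24) and KRT9 did not pass. Of 22 other type II keratins 7 were tested, and 3 were higher (KRT81, KRT86 and KRT8), 2 were lower (KRT80 and KRT78), and KRT4 and KRT7 did not pass. KRT78 had few reads, 2 counts over the KO libraries, 10 over the OE libraries and 48 over the control libraries. KRT80, a type II chain of many epithelia, lost its call with the trend removed (adjusted p = 0.0968).

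KRT81, a hair keratin of the same cluster, had 4118 ± 198 CPM in KO, 1324 ± 163 in OE and 1991 ± 118 in control libraries (SD, n = 3 each), opposite in direction to KRT6B in both comparisons with control. Its log2 fold change was 1.05 ± 0.09 in KO against control (adjusted p = 1.06e-09) and -0.59 ± 0.09 in OE against control (adjusted p = 2.54e-05). KRT81 and KRT86 are close copies, and the annotated span of KRT86 holds KRT81 on the other strand, so their reads may be mixed. KRT10, the type I chain of suprabasal differentiating cells, was also higher in KO (0.90 ± 0.11, adjusted p = 6.7e-07) and lower in OE (-0.36 ± 0.12, adjusted p = 0.0318). The simple epithelial chain KRT8 showed 0.49 ± 0.08 (adjusted p = 2.47e-05) and -0.29 ± 0.08 (adjusted p = 0.0129) in these comparisons.

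Next to KRT15 lies KRT13, a mucosal type I chain that was more abundant by counts than any member in KO libraries, with 7524 ± 468 CPM in KO, 5649 ± 725 in OE and 9197 ± 446 in control libraries. It was lower in both, by a log2 fold change of -0.29 ± 0.09 in KO (adjusted p = 0.00684) and -0.70 ± 0.09 in OE (adjusted p = 2.82e-06). On the other side of the type II block, the mucosal chain KRT4 had 149.6 ± 4.75 CPM in KO, 26.8 ± 3.81 in OE and 139 ± 8.48 in control libraries, a drop in OE of -2.37 ± 0.10 (adjusted p = 7.76e-14) that resembled KRT15 in direction. KRT24, a type I chain, resembled KRT14 and KRT17 in direction with wider swings, at 4.38 ± 0.350 CPM in KO, 64.3 ± 9.84 in OE and 23.4 ± 3.53 in control libraries (-2.42 ± 0.18, adjusted p = 2.47e-10, and 1.46 ± 0.13, adjusted p = 5.7e-08).

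**Figure D5:**
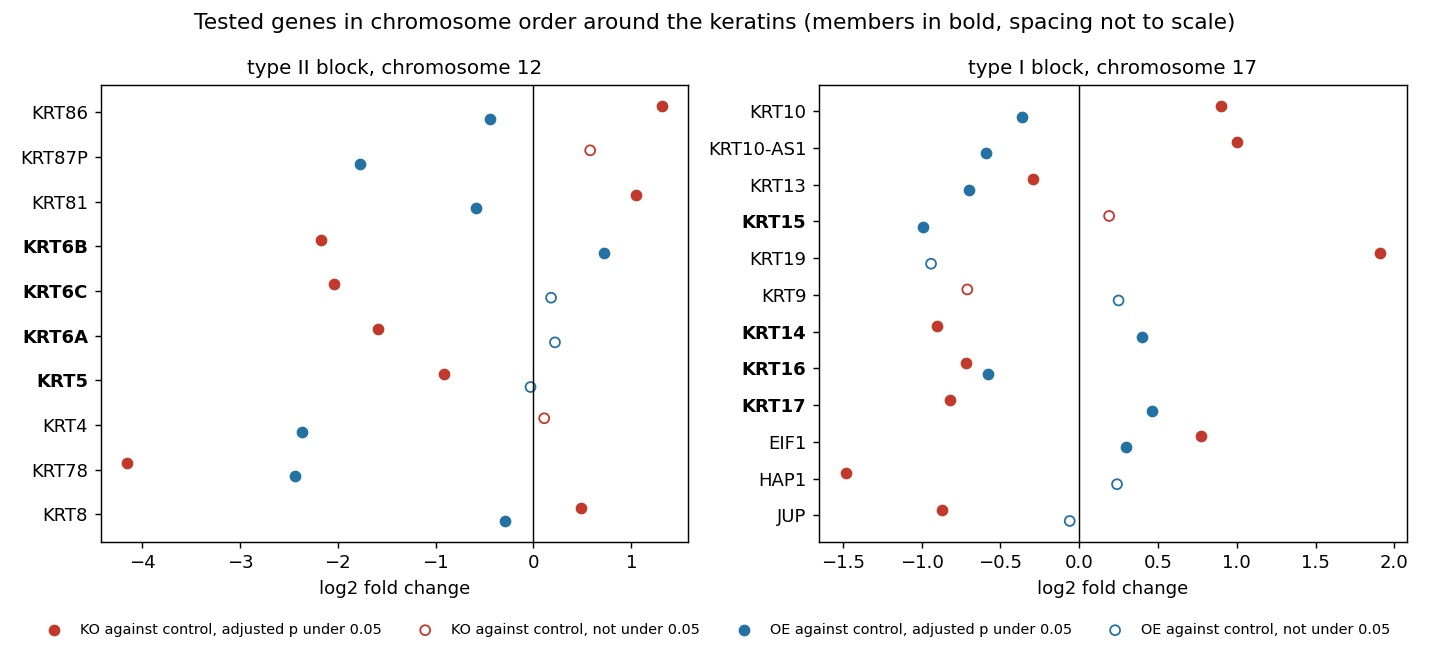
Log2 fold change in KO against control (red) and OE against control (blue) of tested genes in chromosome order around the type II and type I keratin blocks, members in bold, filled where the adjusted p is under 0.05. The 4 type II members are lower in KO while KRT81 and KRT86, next in the order of tested genes, are higher. KRT15 parts from KRT14 and KRT17 in both comparisons. It parts from KRT16 in KO only, where KRT15 does not pass, and both are lower in OE.

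Outside the keratins, the nearest tested gene past the type I block was EIF1, a translation initiation factor, which was higher in KO (0.77, adjusted p = 1.73e-08) and in OE (0.30, adjusted p = 0.00729). Markers of Merkel cells and simple epithelium, among them KRT8, KRT18, KRT19, KRT7 and KRT20, summed to 1411 to 1564 CPM in KO, 922 to 969 in OE and 1027 to 1193 in control libraries. Of these, 4 were tested and 3 were higher in KO against control, beside 26.0% of all genes tested. The 3 were KRT8, KRT18 and KRT19, already counted among the other keratins. The Merkel cell factor ATOH1 was at 0 in all libraries. The part of these markers in the keratin changes was not tested.

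The genome holds pseudogenes named for KRT16 and KRT17 that can take reads of these genes and of their relative KRT14. Of 14 such pseudogenes, KRT16P6 alone passed the filter on low counts (next was KRT17P2, with 13 counts over the KO, 32 over the OE and 25 over the control libraries). KRT16P6 had 8, 16 and 8 counts in KO libraries, 320, 462 and 612 in OE libraries and 242, 208 and 261 in control libraries. It was far lower in KO than in control cells (log2 fold change -4.21 ± 0.23, adjusted p = 2.19e-12), beside -0.72 for KRT16, and higher in OE (0.71 ± 0.14, adjusted p = 0.00108), where KRT16 was lower. All 14 pseudogenes held at most 0.0853% of the KRT14, KRT16 and KRT17 counts in KO libraries, 0.451% in OE libraries and 0.377% in control libraries. Summing them with KRT14, KRT16 and KRT17 gave -0.87 ± 0.08 in KO against control (adjusted p = 3.28e-09) and 0.41 ± 0.08 in OE against control (adjusted p = 0.000502).

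Keratin filaments end in desmosomes at the cell border and hemidesmosomes at the base, through plakins and their partners. Of 15 genes of these anchors, all tested, 14 were lower in KO against control, beside 25.9% of all genes tested. CD151, a tetraspanin of hemidesmosomes, was higher. The median log2 fold change of the 15 was -0.87, beside -0.00 over all genes. DSP, the desmoplakin that ties keratins to desmosomes, had 682 ± 56.3 CPM in KO, 2010.1 ± 319 in OE and 2024 ± 126 in control libraries (-1.57 ± 0.10, adjusted p = 1.99e-11 in KO against control). PLEC, the plectin of hemidesmosomes, had 533 ± 107, 2267 ± 240 and 2119.6 ± 203 CPM in KO, OE and control libraries (-1.99 ± 0.12, adjusted p = 6.24e-12). The plakins EPPK1 and EVPL were lower as well, by log2 fold changes of -2.82 ± 0.18 (adjusted p = 3.02e-11) and -1.62 ± 0.10 (adjusted p = 7.24e-12).

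Several anchor genes are long, and the trend over length bears on them. With it removed 12 of the 15 were lower and the median was -0.55, with values of -1.23 for DSP, -0.87 for PLEC, -1.67 for EPPK1 and -1.02 for EVPL. In OE against control the 2 integrin chains of the hemidesmosome, ITGA6 (0.40 ± 0.08, adjusted p = 0.000436) and ITGB4 (0.51 ± 0.08, adjusted p = 5.06e-05), and the plakophilin PKP2 (0.32, adjusted p = 0.00741) were higher. The other 12 did not pass, where 9.28% of all genes tested were higher and 9.34% lower (18.6% in all). With the trend removed 4 of the 15 were higher and 0 lower in that comparison. ITGA6, like KRT14, KRT17 and KRT6B, was lower in KO (-0.62 ± 0.08, adjusted p = 4.39e-07) with or without the trend, whereas the fall of ITGB4 in KO (-0.51) was 0.01 with the trend removed.

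Among 23 basal layer and hemidesmosome genes, some of which are also in the anchor list, 21 were tested. In KO against control 11 were lower and 4 higher (CD151, TP63, CAV1 and SLC1A3), beside 25.9% and 26.0% of all genes tested. With the trend removed 6 were lower and 4 higher. CAV1 then lost its call (0.07, adjusted p = 0.426), and the integrin chain ITGA3 turned from lower (-0.38) to higher (0.30, adjusted p = 0.000452). COL7A1, the collagen of anchoring fibrils, was lower in KO (-2.44 ± 0.11, adjusted p = 1.2e-13, and -1.61 with the trend removed). SLC1A3, a glutamate transporter of basal cells, was higher in KO at 155 ± 18.0 CPM, against 48.6 ± 3.21 CPM in control cells (1.68 ± 0.10, adjusted p = 8.34e-12), and lower in OE at 25.5 ± 1.37 CPM (-0.93 ± 0.11, adjusted p = 1.19e-06), the order of groups seen for KRT15. In OE against control 9 were higher and 2 lower (SLC1A3 and SYT8), beside 9.28% and 9.34% of all genes tested. With the trend removed 10 were higher and 3 lower, as COL7A1 (-0.21, adjusted p = 0.035) joined those that were lower.

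Proteins that bind, fold or modify keratin filaments showed no common direction. Of 15 tested, 4 were higher in KO against control (CHMP5, CSNK1A1, RACK1 and KLHL24) and 5 lower, among them SFN, TCHP, FBF1 and FAM83H. The other 6 did not pass, where 51.9% of all genes tested changed. With the trend removed 6 were higher and 3 lower, as DNAJB6 (0.87, adjusted p = 5.64e-09) and KEAP1 (0.35, adjusted p = 0.00337) passed and FBF1 (-0.45, adjusted p = 0.339) and FAM83H (-0.10, adjusted p = 0.256) did not. KLHL24, a ubiquitin ligase adaptor that acts on KRT14 protein, was higher in KO (0.59 ± 0.12, adjusted p = 0.000265) and lower in OE (-0.72 ± 0.13, adjusted p = 0.000199). These directions were opposite to those of KRT14 mRNA, and protein was not measured. FAM83H recruits casein kinase to keratin filaments.

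Transcription factors known to act on basal and wound keratin genes were mixed too. Of 40 tested, 6 were higher, 14 lower and 20 not passed in KO against control, near the 51.9% of all genes that changed there. With the trend removed 10 were higher and 9 lower. TEAD1, a partner of YAP, was lower in KO (-1.19 ± 0.10, adjusted p = 1.39e-09), as were SOX9 (-0.83 ± 0.11, adjusted p = 8.17e-07) and the grainyhead factor GRHL3 (-0.82 ± 0.10, adjusted p = 3.03e-07). FOS, a subunit of AP-1, had 110.2 ± 8.73 CPM in KO, 12.8 ± 1.53 in OE and 14.7 ± 0.941 in control libraries (2.90 ± 0.12, adjusted p = 4.92e-14 in KO against control). TP63, the master regulator of stratified epithelium, was 0.29 ± 0.09 higher in KO (adjusted p = 0.00992). In OE against control 6 were higher and 8 lower, beside 9.28% and 9.34% of all genes tested. With the trend removed 6 of the 40 were higher and 10 lower there.

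Wound keratins and other wound genes did not share a direction in KO cells. Of 36 genes of activated and wounded keratinocytes other than keratins, 26 were tested, and 11 were higher and 6 lower in KO against control (10 and 7 with the trend removed). Among all genes tested 26.0% were higher and 25.9% lower. S100A9, a subunit of calprotectin, had 246 ± 33.4 CPM in KO, 36.0 ± 8.89 in OE and 34.7 ± 2.58 in control libraries (2.82 ± 0.13, adjusted p = 2.71e-13). The antimicrobial protein LCN2 was higher as well (2.35 ± 0.14, adjusted p = 9.62e-12). Lower in KO, like KRT6A, were the matrix protein FN1 (-1.68 ± 0.10, adjusted p = 5.29e-12) and the fatty acid binding protein FABP5 (-1.39 ± 0.13, adjusted p = 9.55e-09). In OE against control 14 were higher and 2 lower (LCN2 and SERPINB3), beside 9.28% and 9.34% of all genes tested. The list median was 0.34, beside -0.01 over all genes. FN1 was among those higher (0.62 ± 0.09, adjusted p = 4.02e-05).

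Among 10593 tested genes that averaged 5 CPM or more, leaving out keratins, the patterns most like that of a member over the 9 libraries were found by Pearson correlation of log2 CPM. This measure ignores the size of a change. The closest were RHOBTB2 to KRT5 (r = 0.996), B4GALT4 to KRT14 (0.994), PAQR7 to KRT15 (0.998), MBD3 to KRT17 (0.995) and MAP7D1 to KRT6A (0.991). KRT6B was closest to CBX1 (0.992), KRT6C to PTPA (0.970) and KRT16 to DAPK3 (0.948). Next in line were BAZ1A for KRT5, MN1 for KRT14, RMND5A for KRT15, ARHGAP11A for KRT17, VARS1 for KRT6A, HSPA9 for KRT6B, ERICH1 for KRT6C and EIF2B4 for KRT16, with r from 0.946 to 0.993. The 9 libraries fall into 3 groups whose differences carry these values, which are descriptions. HSPA9, for example, was 1.24-fold lower in KO than in OE cells, where KRT6B was 7.46-fold lower. In KO against control MBD3, MAP7D1, PTPA, ERICH1 and HSPA9 were lower, but did not pass with the length and GC trend removed. The other genes of this paragraph that were lower there stayed lower.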

How the data were processed

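Poly-A selected RNA was sequenced as paired reads of 150 bases, per the labels' protocols. The authors deposited 9 files of whole-number counts of reads per gene, made with featureCounts 1.5.2 against Ensembl release 101 on GRCh38, per the file headers. HISAT2 1.03, FastQC, DESeq2 and featureCounts 0.1.0 are named in the submitters' processing notes, so the featureCounts versions differ. No option for pairs, strandedness, multi-mapping or overlaps stands in the counting command, so mates may be counted separately and near-identical copies are uncertain. Columns of other series numbered 0.

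Counts were fitted with edgeR 4.0.16 in R 4.3.3 (filterByExpr with a minimum count of 10, TMM, quasi-likelihood, group as the only term, all 9 libraries), tested two-sided, and adjusted by Benjamini-Hochberg over 13390 genes. Adjusted p under 0.05 counted as changed. Intervals are 95%, errors of fold changes are SE and those of levels SD over 3 libraries, and they and the floor of 3 counts cover these libraries only. The trend over log2 exon length and GC content (13341 genes with a value, 99.6%) was removed per library with a loess offset (span 0.3). Replicate pairs differed by more than counting noise (chi-square per degree of freedom 2.74 to 11.6). The fit was tested on simulated data. Main transcripts, the shortest of those with the longest coding sequence, are from GENCODE release 29. Coding sequences were aligned with MAFFT 7.526.

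Members, gene lists and tests were chosen with earlier results of these data known. Named were the 8 members, every other tested keratin, pseudogenes with reads (of which KRT16P6 and KRT17P2 are named and the rest given as a sum), the genes most like each member, the nearest tested genes beside the blocks, and up to 4 genes of a list by smallest p in KO against control. Other list genes (where 5 or fewer changed, and ITGB4, KLHL24, TP63 and FN1 in OE) were chosen after their values were seen. A gene of the filament binding list is not reported here. Alternatives were other scalings, filters, tests, thresholds, a replicate block, summed copies and each library left out.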

Additional observations from a re-analysis of the deposited data

How the results depend on the processing

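Over 492 values of the 24 member results under the alternatives, 479 kept their direction and their side of the threshold. KRT15 in KO against control passed when only the compared groups were fitted (adjusted p = 0.0422) and with the length and GC trend removed. KRT6A in OE against control passed under 9 alternatives, with adjusted p from 0.0119 to 0.181 over all of them. Without 1 library each in turn, KRT5 in OE against control ran from -0.04 to 0.00 and KRT6C in OE against control from -0.25 (without OE library 3) to 0.50. Those 2 results, neither of which passed, were the only ones to change sign. The counts of genes changed ran from 6056 to 7201 in KO against control, 1729 to 2585 in OE against control and 6893 to 7673 in KO against OE with each library left out, beside 6951, 2493 and 7711 with all. Members changed stayed at 7, 5 to 6 and 7. Asking for at least 1.5-fold left 4200, 1150 and 4988 genes, and 2 of the 5 members in OE against control, by the construction of that threshold. Adjusted p under 0.01 left 1431 genes in OE against control. With copies summed, members are no longer single genes, so no count of members is given.

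The numbers in the titles did not pair the libraries (correlations of deviations from -0.077 to 0.066 between same-numbered libraries). With the replicate block 6907, 2468 and 7669 genes changed in KO against control, OE against control and KO against OE. The block brought KRT6A in OE against control to an adjusted p of 0.0357 and changed no other member call.

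Depth limits KRT6B and KRT6C, with 27 to 79 counts in KO libraries. After correction a length trend remained in KO against control, with a median of 0.15 in the shortest of 10 length classes. Copies of KRT6 share reads, and levels between genes depend on the transcript length used.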
